A study of Mus musculus with 18 samples.

Results

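The 10 genes described here encode the enzymes that phosphorylate nucleosides, the transporter that lets nucleosides into cells and the subunits of the enzyme that makes deoxynucleotides: Dck, Tk2, Dguok, Cmpk1, Cmpk2, Nme1, Nme2, Rrm1, Rrm2b and Slc29a1. They were taken by symbol from the deposited table, all 10 were found among its 24431 gene rows, and all 10 passed the filter on low values, a mean of at least 10 normalised counts. Poly(A) RNA of a thigh muscle, the rectus femoris, was sequenced from C57BL/6 mice in 18 libraries, and each of the 3 arms comprised 3 female and 3 male libraries. The arms were old mice of 19 months given 3TC, old untreated mice of 19 months and young untreated mice of 8 months. 3TC (lamivudine, a nucleoside inhibitor of reverse transcriptase) was dissolved at 2 mg per mL in the water the mice drank, over 6 weeks.

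3TC is an analogue of deoxycytidine that inhibits reverse transcriptase as its triphosphate. In human cells deoxycytidine kinase adds the first phosphate, UMP-CMP kinase the second, and nucleoside diphosphate kinases, among other enzymes, the third. The same enzymes act on the cell's own nucleosides. Muscle fibres do not divide, and in such cells the deoxynucleotides for mitochondrial DNA come from salvage inside mitochondria by thymidine kinase 2 and deoxyguanosine kinase and from a ribonucleotide reductase that uses the RRM2B subunit. Inherited loss of TK2, DGUOK or RRM2B in humans depletes mitochondrial DNA, in muscle among other tissues.

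None of the 10 genes passed the test in any comparison of the arms. The smallest p with age was that of Tk2, which by the fitted log2 change was 1.52-fold higher in old untreated than in young muscle. It missed the threshold. By the same measure Cmpk2 was 1.68-fold higher with age and 0.702-fold in 3TC-treated against old untreated muscle, both short of the threshold. The median log2 change of all genes was itself 0.16 with age and −0.15 with 3TC. Nme2 had by far the highest level per length, and Rrm1 and Rrm2b varied least between libraries.

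Recovered reads numbered 64.2 M to 85.4 M per library, scaled by the authors to a common total of 74.0 M. Markers of muscle fibres matched the labelled tissue: 10 of 10 were present, with a summed count of 6765630 to 11015800 normalised counts per library. Markers of liver were listed in every arm, with sums of 639 to 326622 normalised counts in 3TC-treated, 2179 to 40549 in old untreated and 2586 to 151435 in young libraries. Young untreated females 3 and 1 stood apart by their share of counts on transposable elements, which was 12.0% in female 3 and 5.92% in female 1, against at most 2.51% in every other library. Young untreated female 3 also held the lowest value of 4 of the 10 genes (Tk2, Dguok, Nme2 and Slc29a1). The members' results with age, and some of those between 3TC-treated and young muscle, are therefore also given without these 2 libraries. This alternative was added after the data were seen. The labels number the libraries but do not state that each is a separate animal, so p-values measure the spread between these libraries. Since the samples are bulk tissue, fewer cells of a type and less RNA per cell cannot be told apart.

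Levels were compared between genes only per length, as normalised counts per base of merged exons scaled to the same sum in every library, as TPM values are, over the 23350 gene rows matched to the annotation. Those rows held 76.1% of the gene counts, and the others are left out of the scale. On this scale Nme2 averaged 682 ± 102 (SD over 18 libraries), a level above that of 99.0% of the tested genes with a matched length. Slc29a1 followed at 28.1 ± 4.88, Nme1 at 23.5 ± 5.11 and Cmpk1 at 20.2 ± 2.25. Nme2 lay above every other member in 18 of 18 libraries, while Slc29a1 lay above Nme1, and Nme1 above Cmpk1, in 13 of 18 each. A middle group held Rrm1 at 9.51 ± 1.04, Rrm2b at 9.16 ± 1.07, Dguok at 8.03 ± 1.13 and Tk2 at 7.07 ± 1.60. The lowest levels per length were those of Cmpk2 at 2.85 ± 1.02 and Dck at 2.20 ± 0.47. The lowest Cmpk1 library lay above the highest Rrm1 library, whereas all neighbours in the order from Rrm1 to Dck overlapped in their ranges.

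**Figure D1:**
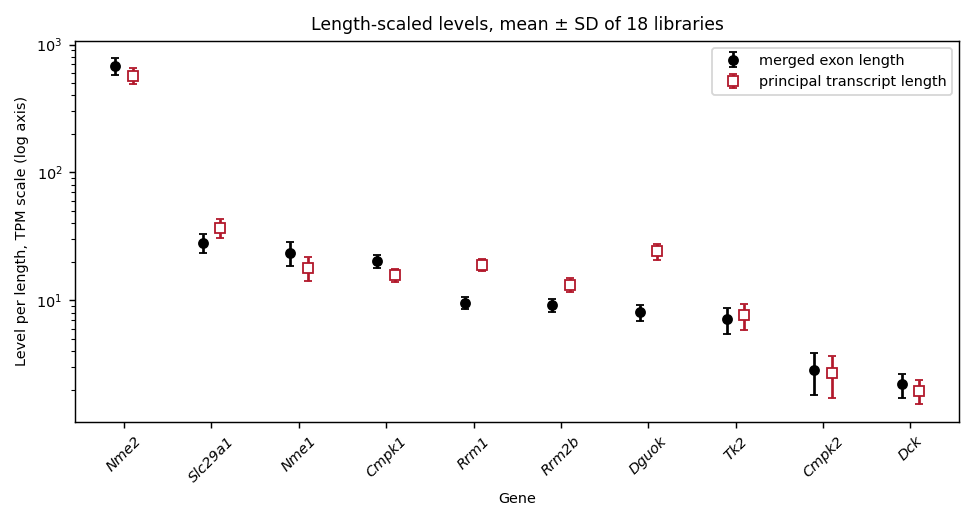
Level per length of each of the 10 genes (log axis, scaled like TPM values; points are means and bars SD of 18 libraries), with lengths taken from merged exons (filled circles) or from the principal transcript (open squares). Nme2 stands highest and Cmpk2 and Dck lowest under both lengths, and Dguok moves most between them.

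The order in the middle depended on the length used. With the length of the principal transcript, an alternative added after the data were seen, Dguok was at 24.2 ± 3.40 (rank 3), Rrm1 at 19.0 ± 2.07 (rank 4) and Nme1 at 17.9 ± 3.80 (rank 5). Nme2, Slc29a1, Tk2, Cmpk2 and Dck kept ranks 1, 2, 8, 9 and 10.

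Variation between libraries differed among the genes as well. The coefficient of variation over 18 libraries was 10.2% for Rrm2b and 10.3% for Rrm1, and only 7.24% and 7.67% of the genes tested had a lower one. It was 34.8% for Cmpk2, 23.8% for Tk2 and 22.6% for Dck, against a median of 22.1% over all genes tested. Cmpk1, Dguok, Nme2, Slc29a1 and Nme1 lay between 12.7% and 17.5%.

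**Figure D2:**
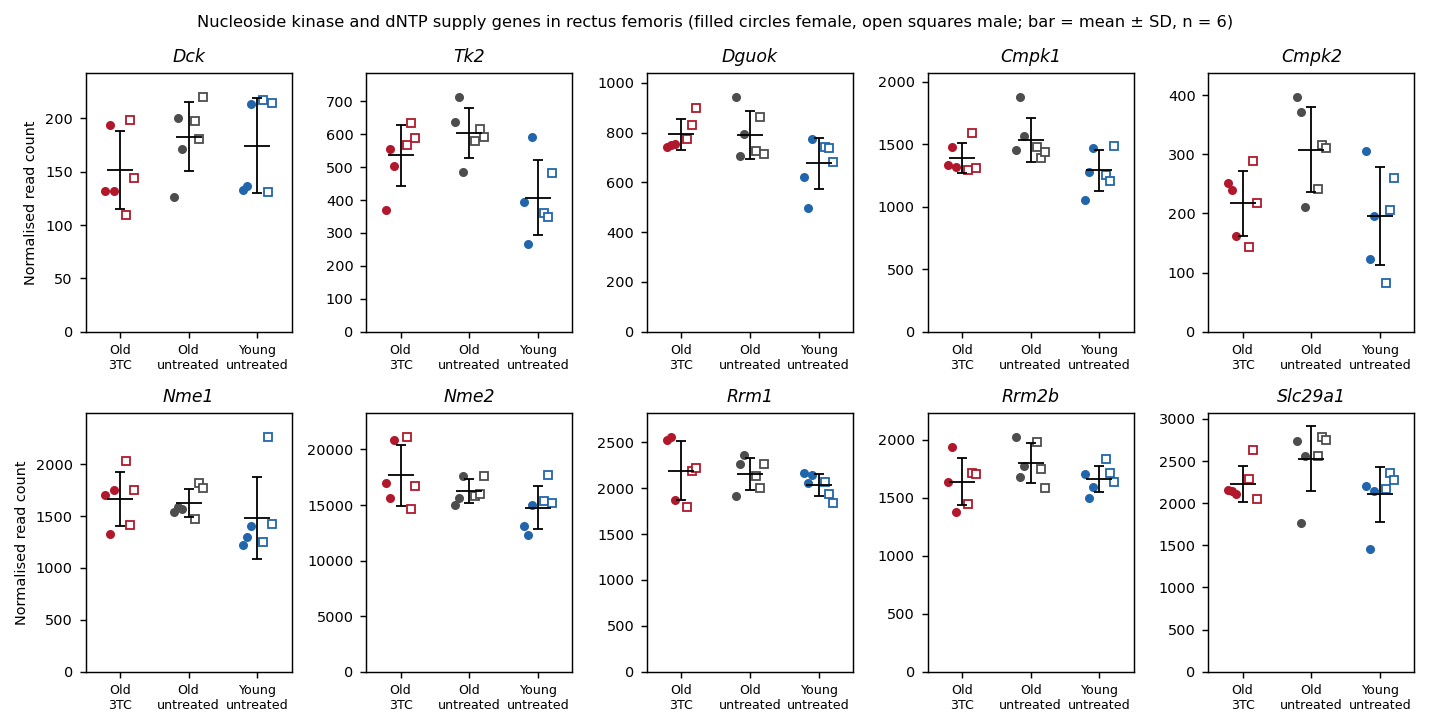
Normalised read count of each gene (linear axes from 0) in the old 3TC, old untreated and young untreated arms, 1 point per library, filled circles for females and open squares for males; bars are means ± SD of 6 libraries. The arms overlap in every panel, and the old untreated arm stands highest on average for Dck, Tk2, Cmpk1, Cmpk2, Rrm2b and Slc29a1.

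The question of the 3TC comparison was what the drug did in old muscle. In limma, no member and none of the 16060 genes passed an adjusted p under 0.05 (background 0%), and neither edgeR nor DESeq2 on recovered reads called a member or any other gene. At an unadjusted p under 0.05, 0 of 10 members were reached, against 10.2% of all genes tested. The members had a median log2 change of −0.14, beside −0.15 over all genes, and 4 of the 10 lay above 0. The 2 old arms overlapped for every member (0.33% of all genes did not overlap).

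With age, in old untreated against young muscle, limma called 0 of 10 members, where 0.367% of all genes passed; edgeR and DESeq2 also called 0. At an unadjusted p under 0.05, 5 members were higher in old muscle (Tk2, Cmpk2, Cmpk1, Slc29a1 and Dguok), where 20.8% of all genes were. The members' median log2 change was 0.20, beside 0.16 over all genes. All 10 lay above 0 at the deposited scaling, but under median-of-ratios scaling, where the median of all genes was near 0, Dck (−0.08), Nme2 (−0.02), Rrm1 (−0.08) and Rrm2b (−0.05) lay below it. The old untreated and young arms overlapped for every member, where 1.04% of all genes did not. Changes with age are therefore also given relative to the median of all genes.

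Between 3TC-treated old and young muscle, limma called 0 of 10 members (background 0.0125%), and edgeR and DESeq2 called 0. At an unadjusted p under 0.05, 3 members were higher in 3TC-treated muscle (Nme2, Tk2 and Dguok), where 6.28% of all genes were. Without young females 1 and 3 the log2 changes of these members were 0.15, 0.28 and 0.11 (adjusted p = 0.895, 0.864 and 0.942, limma). The members' median log2 change was 0.15, beside 0.03 over all genes, and the arms overlapped for every member, where 0.511% of all genes did not. These comparisons share arms, the 3TC comparison and the age comparison the old untreated one, so their values are given side by side and are not independent of each other.

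**Figure D3:**
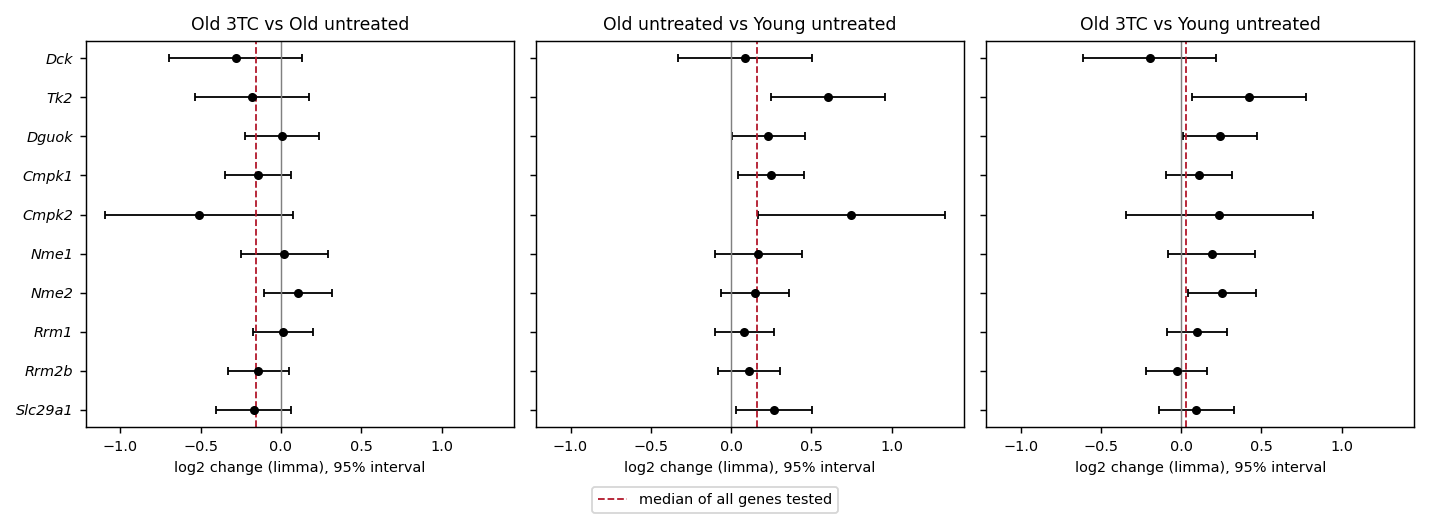
Log2 change of each gene (points, limma) with its 95% interval for old 3TC over old untreated, old untreated over young untreated and old 3TC over young untreated; the dashed line is the median of all genes tested. With age the intervals of Tk2 and, barely, Cmpk2 lie above the dashed line, and with 3TC every interval includes 0.

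Slc29a1 (chromosome 17, 45585200 to 45599606 in GRCm38, minus strand) encodes ENT1, an equilibrative transporter of nucleosides at the plasma membrane. Its normalised count was 2044 at the lowest, 2151 at the median and 2632 at the highest in 3TC-treated muscle, 1770, 2652 and 2789 in old untreated muscle, and 1457, 2190 and 2361 in young muscle. The log2 change was −0.17 ± 0.11 (SE) with 3TC (adjusted p = 0.547, limma) and 0.27 ± 0.11 with age (adjusted p = 0.182, limma). Relative to the median of all genes the change with 3TC was −0.02. Old untreated female 2 lay far below the other old untreated libraries and young untreated female 3 far below the other young ones. The age change was 0.10 above the median of all genes, and without young females 1 and 3 it was 0.20 (adjusted p = 0.485, limma). Slc29a1 was also the member with the smallest p between the sexes, with a log2 difference of −0.20 ± 0.09 in females over males (adjusted p = 0.324, limma). Its relative Slc29a2, encoding ENT2, averaged 357 ± 55.9 normalised counts in 3TC-treated, 366 ± 59.3 in old untreated and 324 ± 24.6 in young muscle.

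Dck (chromosome 5, 88764996 to 88783281, plus strand) encodes deoxycytidine kinase, which phosphorylates deoxycytidine, deoxyadenosine and deoxyguanosine in the cytosol. Its counts were 109, 138 and 198 (lowest, median and highest) in 3TC-treated muscle, 126, 189 and 220 in old untreated muscle, and 131, 175 and 217 in young muscle. The log2 change with 3TC was −0.28 ± 0.20 (adjusted p = 0.56, limma) and that with age 0.09 ± 0.20 (adjusted p = 0.813, limma). Relative to the median of all genes these were −0.13 and −0.08. With age the log2 change was −0.06 once young females 1 and 3 were left out (adjusted p = 0.917, limma). 2 of 6 3TC-treated libraries lay above the old untreated mean. In the young arm females 1 and 3 and male 2 lay at 131 to 136 normalised counts. The other 3 young libraries lay at 214 to 217, and each set held both sexes.

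Tk2 (chromosome 8, 104226685 to 104248558, minus strand) encodes the thymidine kinase of mitochondria, which also phosphorylates deoxycytidine. Its counts were 370, 561 and 635 (lowest, median and highest) in 3TC-treated muscle, 487, 603 and 714 in old untreated muscle, and 266, 378 and 593 in young muscle. All 6 old untreated libraries lay above the young mean, and the arms overlapped through young untreated female 8, the highest young library. Tk2 averaged 604 ± 74.8 normalised counts in old untreated and 408 ± 114 in young muscle (SD, n = 6 each). The log2 change was 0.60 ± 0.17 (95% interval 0.25 to 0.96), 0.44 above the median of all genes, with an adjusted p of 0.0742 in limma. In females it was 0.61 ± 0.24 and in males 0.60 ± 0.24, and the difference between them was 0.01 ± 0.34 (adjusted p = 1.00, limma).

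The Tk2 call with age turned on the setting. Without young untreated female 8 the log2 change was 0.74 (adjusted p = 0.0245, limma), and with weights for library quality it was 0.56 (adjusted p = 0.0384). Without young untreated females 1 and 3 it was 0.46 (adjusted p = 0.347, limma), and edgeR on recovered reads gave 0.42 (adjusted p = 0.244). With 3TC the log2 change of Tk2 was −0.18 ± 0.17 (adjusted p = 0.643, limma), with 1 of 6 treated libraries above the old untreated mean. Relative to the median of all genes this change was −0.03. Against young muscle, 3TC-treated muscle had a log2 change of 0.42 ± 0.17 (adjusted p = 0.451, limma).

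Dguok (chromosome 6, 83480217 to 83506969, minus strand) encodes the deoxyguanosine kinase of mitochondria, the purine counterpart of Tk2. Its counts were 743, 765 and 900 (lowest, median and highest) in 3TC-treated muscle, 708, 761 and 944 in old untreated muscle, and 498, 710 and 775 in young muscle. Every library of both old arms lay above the young mean of 676 ± 103 normalised counts. The log2 change was 0.23 ± 0.11 with age (adjusted p = 0.222, limma) and 0.01 ± 0.11 with 3TC (adjusted p = 0.983, limma). Without young females 1 and 3 the age change was 0.10 (adjusted p = 0.697, limma), and relative to the median of all genes it was 0.07. The ratio of Tk2 to Dguok per merged-exon length averaged 0.872 ± 0.126 in 3TC-treated, 0.998 ± 0.181 in old untreated and 0.774 ± 0.156 in young muscle. The size of this ratio depends on the length used. With principal transcript lengths Tk2 averaged 7.60 ± 1.71 and Dguok 24.2 ± 3.40 over the 18 libraries.

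The 3 deoxynucleoside kinases belong to related families, and their transcripts are distinct in sequence. The coding sequence of Dck has 783 bases, that of Dguok 834 and that of Tk2 813. Dck and Dguok were identical at 62.1% of aligned bases, Dguok and Tk2 at 62.2% and Dck and Tk2 at 58.7%, and no identical run was longer than 11 bases.

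Cmpk1 (chromosome 4, 114959336 to 114987241, minus strand) encodes the UMP-CMP kinase of the cytosol, which makes CDP, UDP and dCDP. Its counts were 1296, 1329 and 1591 (lowest, median and highest) in 3TC-treated muscle, 1390, 1467 and 1881 in old untreated muscle, and 1055, 1267 and 1488 in young muscle. The log2 change with age was 0.25 ± 0.10 (adjusted p = 0.153, limma), with 6 of 6 old untreated libraries above the young mean, and it was 0.09 above the median of all genes. Without young females 1 and 3 it was 0.15 (adjusted p = 0.543, limma). With 3TC the log2 change was −0.14 ± 0.10 (adjusted p = 0.557, limma), 0.01 above the median of all genes.

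Cmpk2 (chromosome 12, 26469204 to 26479837, plus strand) encodes a UMP-CMP kinase of mitochondria and is known as an interferon-induced gene. Its counts were 143, 228 and 289 (lowest, median and highest) in 3TC-treated muscle, 211, 313 and 397 in old untreated muscle, and 82.4, 201 and 305 in young muscle. All 6 3TC-treated libraries lay below the old untreated mean of 308 ± 72.1 normalised counts, and all 6 old untreated libraries lay above the young mean of 195 ± 82.8. The arms still overlapped in each comparison. The log2 change was −0.51 ± 0.28 with 3TC (95% interval −1.09 to 0.07, adjusted p = 0.508, limma) and 0.75 ± 0.28 with age (0.16 to 1.33, adjusted p = 0.14, limma). Relative to the median of all genes these were −0.36 and 0.58. Without young females 1 and 3 the age change of Cmpk2 was 0.78 (adjusted p = 0.347, limma).

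For Cmpk2 each change had the same sign in both sexes. With 3TC the log2 change was −0.55 ± 0.42 in females and −0.47 ± 0.42 in males, and with age it was 0.69 ± 0.42 in females and 0.80 ± 0.42 in males. The differences between the sexes, −0.09 ± 0.59 with 3TC and −0.11 ± 0.59 with age, were smaller than their errors. With liver and brain marker scores as covariates the change with 3TC was −0.24 (adjusted p = 1.00, limma) and that with age 0.52 (adjusted p = 0.449, limma). Leaving out 1 library at a time left the change with 3TC between −0.63 and −0.41.

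Cmpk2 lies beside Rsad2 on chromosome 12, with 12751 bases between them. Rsad2 encodes viperin, an antiviral enzyme that in humans converts CTP into a chain-terminating nucleotide. Rsad2 averaged 370 ± 80.8 normalised counts in 3TC-treated, 385 ± 132 in old untreated and 190 ± 79.4 in young muscle. Its log2 change with age, 1.04 ± 0.27 (adjusted p = 0.0661, limma), missed the threshold like that of Cmpk2; without young females 1 and 3 it was 1.06 (adjusted p = 0.263, limma). With 3TC its log2 change was −0.01 ± 0.27 (adjusted p = 0.99, limma), beside −0.51 ± 0.28 for Cmpk2; the difference between the 2 genes was not tested.

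**Figure D4:**
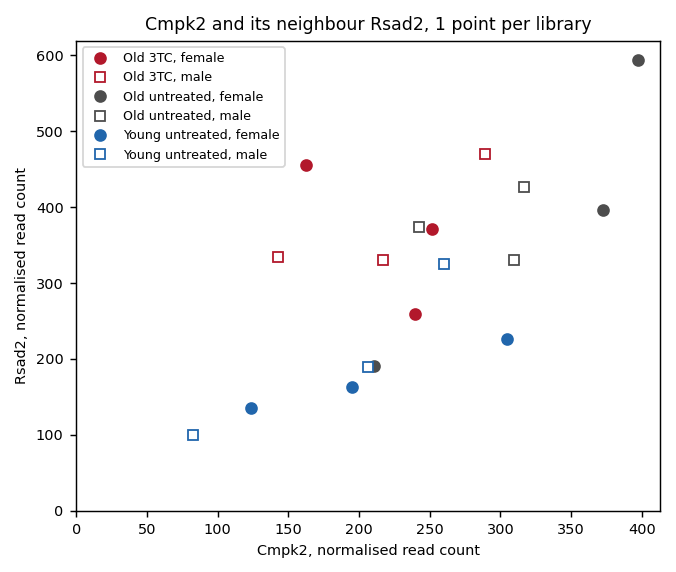
Normalised read counts of Cmpk2 (horizontal axis) and Rsad2 (vertical axis), 1 point per library, coloured by arm, with filled circles for females and open squares for males. The young libraries span Cmpk2 counts of 82.4 to 305 and Rsad2 counts of 99.5 to 325, and 3TC-treated libraries reach Rsad2 counts of 471 at Cmpk2 counts of at most 289.

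Over the 18 libraries the log2 values of Cmpk2 and Rsad2 had a Pearson r of 0.71, and the 22 interferon-stimulated genes with a mean of at least 50 had a median r of 0.71 with Cmpk2, beside 0.32 over all genes. The points share the arms and the scaling. Of 25 interferon-stimulated genes, 0 passed in any comparison in limma or edgeR. DESeq2 on recovered reads called Irf7 (1.15, adjusted p = 0.00731) and Oasl2 (1.05, adjusted p = 0.0307) higher in old untreated than in young muscle, and Rsad2 (0.96, adjusted p = 0.0425) higher in 3TC-treated than in young muscle; these 3 are named after their values were seen. At an unadjusted p under 0.05, 20 of the 25 genes were higher in old untreated than in young muscle, beside 20.8% of all genes. Irf7 (1.26 ± 0.30, adjusted p = 0.0564, limma), a transcription factor of the interferon response, was the one with the smallest p. With 3TC 4 of the 25 were lower, beside 10% of all genes, Ifi44 (−0.88 ± 0.29, adjusted p = 0.481, limma) with the smallest p. The list's median log2 change was −0.40 with 3TC and 0.77 with age.

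Markers of other cell types are given beside these values, and in limma none passed the threshold. The 10 macrophage markers had a median log2 change of 1.15 with age, and 10 of 10 were higher at an unadjusted p under 0.05; DESeq2 called 4 of them higher with age (C1qa, C1qb, C1qc and Mrc1) and edgeR 0. Their summed count ranged over 10624 to 24547 in 3TC-treated, 15690 to 45649 in old untreated and 4269 to 27878 in young libraries, and no marker was at 0 throughout. The 7 tested markers of T and NK cells had a median of 1.57, with sums of 175 to 414 in 3TC-treated, 188 to 1070 in old untreated and 85.3 to 242 in young libraries. The 8 adipocyte markers had a median of 1.41, 5 of them higher at an unadjusted p under 0.05, with sums of 24126 to 102693 in 3TC-treated, 26273 to 238020 in old untreated and 15027 to 80166 in young libraries. Of 14 liver markers, 7 were lower in old untreated than in young muscle at an unadjusted p under 0.05. At that threshold 20.8% of all genes were higher with age and 1.22% lower. Of the plasma cell markers DESeq2 called Jchain higher with age (2.55, adjusted p = 0.0117) and in 3TC-treated against young muscle (2.36, adjusted p = 0.0373), and of the muscle fibre markers Acta1 lower with age (−0.40, adjusted p = 0.0322). With 3TC the median log2 change was −0.40 for macrophage, −0.41 for T and NK cell, −0.30 for adipocyte, 0.42 for liver and −0.96 for brain and nerve markers, beside −0.15 over all genes. The summed count of brain and nerve markers was 28257 to 50635 in 3TC-treated, 29885 to 50150 in old untreated and 27400 to 60282 in young libraries. Camk2a made up most of it, with means of 35906 in 3TC-treated and 38366 in old untreated muscle. Snap25 averaged 30.9 ± 53.6 in 3TC-treated and 341 ± 396 in old untreated muscle. The brain marker score was 9.59, 7.98 and 7.91 in old untreated females 1, 2 and 3. It was lower in every old untreated male and 3TC-treated library, and 9.53 in young untreated male 8. Old untreated females 1 and 2 had the highest Cmpk2 counts of their arm (397 and 372) and female 3 the lowest (211). Liver and brain marker scores entered a fit as covariates, given above for Cmpk2. Beyond that fit, the part of these cell types in the values of Cmpk2, Tk2 or the other members was not tested.

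The promoters of both UMP-CMP kinases and of Rsad2 were read for the motif of interferon-stimulated genes, since Cmpk2 and Rsad2 lie side by side and are both known to respond to interferon. The windows are from RefSeq (GRCm38.p6), run 5′ to 3′ from 250 bases before to 50 after each gene's start, and capitals mark the letters GAAA, any 2 bases, GAAA on either strand. The Cmpk1 window is chr4:114987179-114987478 on the minus strand, that of Cmpk2 chr12:26468965-26469264 on the plus strand and that of Rsad2 chr12:26456403-26456702 on the minus strand.
Cmpk1: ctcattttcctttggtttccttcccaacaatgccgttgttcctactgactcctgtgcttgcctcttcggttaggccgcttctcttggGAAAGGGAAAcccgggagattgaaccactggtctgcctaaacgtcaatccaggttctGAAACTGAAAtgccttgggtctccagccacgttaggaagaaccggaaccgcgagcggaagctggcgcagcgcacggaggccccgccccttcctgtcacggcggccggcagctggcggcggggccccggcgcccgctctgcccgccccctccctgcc
Cmpk2: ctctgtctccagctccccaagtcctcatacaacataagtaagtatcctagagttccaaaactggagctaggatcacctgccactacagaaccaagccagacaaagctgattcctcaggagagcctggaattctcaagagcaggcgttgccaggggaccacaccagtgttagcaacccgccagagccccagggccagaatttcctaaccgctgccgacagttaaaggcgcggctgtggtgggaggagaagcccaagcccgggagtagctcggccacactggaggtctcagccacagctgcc
Rsad2: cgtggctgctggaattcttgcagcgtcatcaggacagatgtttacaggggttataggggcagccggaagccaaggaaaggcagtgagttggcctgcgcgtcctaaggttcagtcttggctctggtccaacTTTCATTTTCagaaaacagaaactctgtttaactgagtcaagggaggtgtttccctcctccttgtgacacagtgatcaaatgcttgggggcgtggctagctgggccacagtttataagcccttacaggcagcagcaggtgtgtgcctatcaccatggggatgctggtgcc

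Among the members matched the letters were found in Cmpk1 alone, with matches that begin 163 and 106 bases before the start, and Rsad2 held a match on the opposite strand that begins 120 bases before it. The Cmpk2 window held none. Promoters were matched by symbol for 9 of the 10 members, all but Rrm2b, in 18 windows. Of 32851 RefSeq promoters 3.44% held the letters, and of 17 interferon-stimulated genes with a promoter 10 did. Letters bound by E2F factors of the cell cycle (TTTGGCGC, TTTCCCGC or TTTCGCGC, either strand) were in 0 of the 9 members and in 1.84% of all promoters. The windows of Rrm2 and Tk1, genes of dividing cells, held none of these letters either. A match describes the window only.

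Nme1 (chromosome 11, 93956979 to 93968521, minus strand) and Nme2 (chromosome 11, 93949814 to 93956259, minus strand) encode the A and B subunits of nucleoside diphosphate kinase, which hands a phosphate to all nucleoside diphosphates. The genes are neighbours, 719 bases apart, and a readthrough gene, Gm20390, overlaps both and has no row of its own. The split of reads between them therefore needs care, and their coding sequences are shown where they are most alike. Each has 459 coding bases, of which 367 (80.0%) are identical, and the longest identical run has 29 bases. Coding bases 301 to 389 hold that run and 14 of the 92 differences, marked in capitals.
Nme1: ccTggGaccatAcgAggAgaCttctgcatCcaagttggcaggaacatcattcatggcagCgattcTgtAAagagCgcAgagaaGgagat
Nme2: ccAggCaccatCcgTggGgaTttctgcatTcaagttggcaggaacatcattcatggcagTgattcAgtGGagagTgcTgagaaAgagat

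Nme2 took 91.4 ± 0.70% of the counts on the 2 genes in 3TC-treated, 90.9 ± 0.70% in old untreated and 91.0 ± 1.30% in young muscle (SD, n = 6 each). Nme2 counts were 14630, 16834 and 21148 (lowest, median and highest) in 3TC-treated muscle, 14972, 15902 and 17635 in old untreated muscle, and 12256, 15082 and 17732 in young muscle. The highest values were those of 3TC-treated male 1 and female 8. Nme1 counts were 1326, 1728 and 2033 in 3TC-treated muscle, 1468, 1581 and 1819 in old untreated muscle, and 1223, 1351 and 2265 in young muscle, where male 2 lay far above the rest.

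Nme2 had a log2 change of 0.11 ± 0.10 with 3TC (adjusted p = 0.649, limma), 0.15 ± 0.10 with age (adjusted p = 0.382, limma) and 0.25 ± 0.10 between 3TC-treated and young muscle (adjusted p = 0.447, limma). The values of Nme1 were 0.02 ± 0.13, 0.17 ± 0.13 and 0.19 ± 0.13 in the same comparisons. Relative to the median of all genes the age change was −0.02 for Nme2 and 0.005 for Nme1. The sum of both genes, which does not depend on the split, had log2 changes of 0.10 ± 0.10, 0.15 ± 0.10 and 0.25 ± 0.10, with adjusted p of 0.672, 0.38 and 0.457 in limma. Without young females 1 and 3 the age change was 0.05 for Nme2 (adjusted p = 0.872, limma) and 0.10 for Nme1 (adjusted p = 0.795, limma). Nme2 was, with Nme1, Dguok and Rrm1, one of the 4 members above 0 with 3TC, and it lay 0.26 above the median of all genes.

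Rrm1 (chromosome 7, 102441695 to 102469771, plus strand) encodes the large subunit of ribonucleotide reductase. Its counts were 1796, 2203 and 2563 (lowest, median and highest) in 3TC-treated muscle, 1912, 2199 and 2364 in old untreated muscle, and 1841, 2064 and 2162 in young muscle. The log2 change was 0.01 ± 0.09 with 3TC (95% interval −0.17 to 0.20) and 0.08 ± 0.09 with age (−0.10 to 0.27), with adjusted p of 0.954 and 0.587 in limma. The age change was 0.08 without young females 1 and 3 (adjusted p = 0.754, limma). Relative to the median of all genes the age change of all 18 libraries was −0.08. Neither interval of all 18 libraries reaches further than 0.27 from 0.

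Rrm2b (chromosome 15, 37923952 to 37961318, minus strand) encodes p53R2, the small subunit used outside S phase. Its counts were 1373, 1672 and 1935 (lowest, median and highest) in 3TC-treated muscle, 1587, 1759 and 2026 in old untreated muscle, and 1498, 1671 and 1831 in young muscle. The log2 change was −0.14 ± 0.09 with 3TC (adjusted p = 0.544, limma) and 0.11 ± 0.09 with age (adjusted p = 0.466, limma). Relative to the median of all genes these were 0.01 and −0.05. The age change was 0.09 without young females 1 and 3 (adjusted p = 0.752, limma). Per length, Rrm2b stood 10.4 ± 3.67 times as high as Rrm2, the small subunit of dividing cells, in 3TC-treated muscle, 12.4 ± 7.21 times in old untreated muscle and 9.11 ± 3.92 times in young muscle. Rrm1 over Rrm2b per length was 1.11 ± 0.09 in 3TC-treated, 1.01 ± 0.16 in old untreated and 1.02 ± 0.10 in young muscle. These ratios rest on merged-exon lengths. With principal transcript lengths Rrm1 averaged 19.0 ± 2.07 and Rrm2b 13.3 ± 1.57 over the 18 libraries. Of 20 p53 targets, 0 passed in any comparison in limma or edgeR, DESeq2 called only Eda2r, higher in 3TC-treated than in young muscle (0.89, adjusted p = 0.0236), and in limma at an unadjusted p under 0.05 there were 3 higher with age and 2 lower with 3TC, shares no larger than the 20.8% and 10% of all genes.

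Partners of the members in the pathway were low to moderate in count. Rrm2 averaged 53.6 ± 22.4 normalised counts in 3TC-treated, 56.9 ± 31.4 in old untreated and 67.6 ± 36.7 in young muscle. Tk1, the cytosolic thymidine kinase of dividing cells, averaged 340 ± 54.8, 296 ± 32.0 and 372 ± 126 in the same arms, and thymidylate synthase, Tyms, 53.6 ± 11.9, 70.0 ± 28.9 and 83.6 ± 29.3. Cda, the cytidine deaminase, averaged 31.0 ± 14.7, 26.5 ± 12.9 and 32.7 ± 13.0. Samhd1, which breaks deoxynucleoside triphosphates down, averaged 1723 ± 239, 2155 ± 683 and 1416 ± 356. Its log2 change was −0.27 ± 0.18 with 3TC (adjusted p = 0.547, limma) and 0.57 ± 0.18 with age (adjusted p = 0.0933, limma). None of these genes passed in any comparison. Of 12 genes of S phase and cycling cells 0 passed in limma, edgeR or DESeq2, and 2 were higher with age at an unadjusted p under 0.05, no larger a share than the 20.8% of all genes. The summed count of these 12 was 2343 to 3217 in 3TC-treated, 2497 to 3204 in old untreated and 2218 to 3059 in young libraries.

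The rest of the pathway was read from fixed lists, and 0 genes passed in any list and comparison in limma, edgeR or DESeq2. With age, of 24 genes for nucleotide breakdown and pool cleansing, 8 were higher at an unadjusted p under 0.05, beside 20.8% of all genes. Xdh, the xanthine dehydrogenase that makes uric acid, had the smallest p (0.71 ± 0.19, adjusted p = 0.0661, limma). Of 20 other nucleoside and nucleotide kinases 2 were higher, with the uridine-cytidine kinase Uck1 (0.58 ± 0.19, adjusted p = 0.0986, limma) and the diphosphate kinase Nme3 (0.28 ± 0.12, adjusted p = 0.173). Of 5 genes of pyrimidine synthesis 2 were higher, the CTP synthase Ctps2 (0.63 ± 0.16, adjusted p = 0.0625, limma) and Cad (0.33 ± 0.14, adjusted p = 0.175). Purine synthesis and salvage had 2 of 15, ribonucleotide reduction and thymidylate synthesis 1 of 13 and nucleoside and nucleotide transporters 3 of 16 tested.

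With 3TC the same lists had 0 genes higher at an unadjusted p under 0.05. Ctps2 (−0.42 ± 0.16, adjusted p = 0.481, limma) and Cad (−0.31 ± 0.14, adjusted p = 0.483) were the 2 of 5 lower in pyrimidine synthesis. The efflux pump gene Abcb1a (−0.33 ± 0.11, adjusted p = 0.481, limma) and the mitochondrial pyrimidine nucleotide carrier gene Slc25a36 (−0.44 ± 0.17, adjusted p = 0.481) were among 3 of 16 transporters. Nucleotide breakdown, kinases and purine synthesis had 1 each and ribonucleotide reduction 0, beside 10% of all genes. The median log2 change with 3TC was −0.02 for the kinases, −0.03 for breakdown, −0.01 for ribonucleotide reduction, −0.06 for purine and −0.13 for pyrimidine synthesis and −0.23 for transporters. With age these medians were 0.11, 0.11, −0.12, 0.15, 0.17 and 0.12.

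Likeness of pattern was measured as Pearson r of log2 values over the 18 libraries, which share the arms and the scaling. Tk2 was most like Ergic3 (r = 0.93) and Spg21 (0.93), Cmpk2 most like Camkk2 (0.88) and Trim30d (0.87), and Nme2 most like Atp5l (0.90) and Tmem256 (0.88). Rrm2b was most like Abl2 (0.88), Slc29a1 most like Emilin1 (0.88), Cmpk1 most like Klhl28 (0.86), Dguok most like Mmp11 (0.85), Nme1 most like Pla2g12a (0.85) and Dck most like Pcdh7 (0.83). The highest r for Rrm1, with Wnt5b, was 0.77. Among the members the closest pair was Nme1 and Nme2 (0.76), followed by Tk2 and Dguok (0.68), while Rrm1 reached at most 0.33 with any other member.

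No member passed the test between the sexes. In limma 0 of 10 members differed between females and males, where 2.33% of all genes did, and 1 did at an unadjusted p under 0.05 (Slc29a1), where 15.1% of all genes did. The change with age or with 3TC differed between the sexes for 0 of 10 members, where 0% of all genes did. At an unadjusted p under 0.05 that was so for 4.88% of all genes with age and 2.97% with 3TC, and for 0 members in either.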

How the data were processed

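Per the submitters' processing notes, reads were aligned with STAR to mm10; for the counting program and strand setting the sources used here name none. Deposited was a signal: read counts that the authors scaled to a common total of 74.0 M. Within each library all values were whole multiples of 1 step (100% within 0.001 reads), which gave 64.2 M to 85.4 M recovered reads; in old untreated female 1 and young untreated male 1 the step was near 1. The 27 rows named by dates held at most 0.0831% of counts and were not tested.

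limma 3.58.1 in R 4.3.3 (trend) was fitted to log2 of the normalised count plus 1 for 16060 genes with a mean of at least 10, with arm and sex as terms and Benjamini-Hochberg adjustment over all genes (threshold 0.05). Errors of changes are SE and errors of means SD. Alternatives were DESeq2 1.42.0 and edgeR 4.0.16 run on those recovered reads, with other scalings, pseudocounts, filters, weights, a replicate block, tissue scores and leaving out each library. On simulated data of 16060 genes limma found 35.8% of 1.5-fold, 53.7% of 2-fold and 83.3% of 4-fold changes with age. With 3TC it found 43.3%, 56.7% and 78.8%, so changes of each of these sizes, and smaller ones, can be missed. The simulation shuffled residuals within each gene, which keeps neither the likeness between genes nor libraries that stand apart.

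The members and lists were chosen with earlier results of these data known. Named genes were the members, 7 partners, up to 2 genes of smallest p per list and comparison, and the 2 genes most like each member. Coordinates and lengths came from GENCODE M21 (GRCm38, that is mm10).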

Additional observations from a re-analysis of the deposited data

Results flagged for a closer look

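In 6 of 51 sets (the 10 members and 7 partners in each arm of 6 libraries), 1 library lay far from the other 5 by Dixon's criterion; chance gives about 1 in 20. Cmpk1 had 1880.75 normalised counts in old untreated female 2, against 1390 to 1566 in the other old untreated libraries. The same library had the lowest Slc29a1 count of its arm, 1770.49, against 2557 to 2789. Slc29a1 was also low in young untreated female 3, at 1457.47 against 2146 to 2361 in the other young libraries. In that library Rrm2 was high, at 136.467 against 35.1 to 72.2. Nme1 had 2264.96 normalised counts in young untreated male 2, against 1223 to 1427. Samhd1 had 2108.97 in young untreated male 8, against 1153 to 1419.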

How the results depend on the processing

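For the 3TC comparison the count of members called stayed at 0 in all 32 alternatives and for 3TC-treated against young muscle in all 33. With age it was 0 in 32 of 34 and 1 (Tk2) with array weights; over left-out libraries it ranged from 0 to 1, the 1 being without young untreated female 8. The 3 alternatives tried for the sex results left them at 0.

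The count of all genes called depended far more on the setting. With 3TC it was 0 throughout. With age it was 59, and 24 with median-of-ratios scaling, 991 with array weights, 4 with edgeR, 221 with DESeq2, 14 without the sex term, 0 with the replicate block under either numbering of young female 1, 4 with liver and brain scores and 2 without young untreated females 1 and 3; leaving out 1 library gave 2 (without young male 1 or old untreated male 1) to 608 (without young male 8). For 3TC-treated against young muscle it was 2, and 8 with array weights, 120 with DESeq2, 0 with the replicate block, 4 with only those arms and 4 with the scores; left-out libraries gave 2 to 16. Counts this unsteady make the background shares unsteady too; the cause was not tested.

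The deposited scaling left the median of all genes at −0.15 with 3TC and 0.16 with age, and median-of-ratios scaling left it at −0.01 and −0.0004. Small changes reversed sign. With age Dck was −0.078 with median-of-ratios scaling, −0.074 with edgeR, −0.084 with DESeq2 and −0.065 without young untreated females 1 and 3; Nme1 was −0.019 with edgeR and −0.026 with DESeq2. In the order median-of-ratios scaling, edgeR and DESeq2, Nme2 was −0.018, −0.013 and −0.020, Rrm1 −0.083, −0.070 and −0.077, and Rrm2b −0.054, −0.048 and −0.055. With 3TC Nme1 was −0.022 with array weights and Rrm1 −0.012 with liver and brain scores. Over left-out libraries Dck with age ranged from −0.0081 to 0.18, and with 3TC Dguok from −0.034 to 0.073, Nme1 from −0.026 to 0.087 and Rrm1 from −0.033 to 0.072; Rrm2b in 3TC-treated against young muscle ranged from −0.085 to 0.021.

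By the labels' titles old untreated and young libraries share the numbers female 1, female 3 and male 1, and deviations of same-numbered libraries had r of 0.11, −0.0002 and 0.17. Young female 1 carries the number 2 in its library name, and with old untreated female 2 its r was −0.041. 3TC-treated and young libraries share female 8, male 1 and male 2, with r of 0.19, −0.014 and −0.062. Not every pair passed 0.1, nor was every library closest to its own number, so the libraries are taken to share only a number. With the replicate block no member was called (0) in either comparison. With age Tk2 had a log2 change of 0.70 (adjusted p = 0.293, limma), and 0.75 (adjusted p = 0.209, limma) with young female 1 numbered 2; Rrm1 in 3TC-treated against young muscle was −0.089. The fits for 3TC-treated against young muscle and for the other number were added after the data were seen. Old 3TC and old untreated libraries share 1 number, so no blocked fit was made there. Depth is no narrow limit here, as the lowest member count was 82.4 (Cmpk2).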
